A study of Mus musculus with 9 samples.

Results

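Wild-type mouse macrophages that had received exosomes from ApoE-deficient macrophages were compared directly with wild-type macrophages that had received exosomes from wild-type macrophages. The comparison uses 6 of the 9 RNA-seq libraries of the series, and 13815 of the 55536 gene IDs in the count table were expressed highly enough to be tested. The recipient cells of every library were bone marrow-derived macrophages (BMDM), which are marrow cells cultured with the growth factor M-CSF until they become macrophages. The marrow came from male mice aged 6 to 12 weeks, and M-CSF was given at 25 ng/mL over 6 days. The cells then received, for 18 hours, exosomes from ApoE-deficient BMDM at 2e+09 particles/mL (3 libraries), exosomes from wild-type BMDM at the same particle number (3 libraries), or the buffer PBS (3 libraries). Recipient cells are labelled wild-type in all 3 groups, so the contrast between the exosome groups is one of the donor cells' genotype. The labels do not tell whether replicates were cultures of different mice or received different exosome preparations. A p-value here therefore weighs a difference against the spread of these particular libraries, which may be technical, and donor genotype and exosome preparation cannot be told apart.

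Exosomes are small vesicles of endosomal origin that carry protein, lipid and RNA from one cell to another. ApoE is a secreted lipid carrier that binds cholesterol leaving the macrophage, and it is among the most abundant mRNAs of these cells. Several of the pathways described here have well known regulators. ATF4 is a transcription factor made when cells sense amino acid shortage or other translational stress, and it turns on genes for amino acid synthesis, amino acid import and tRNA charging. NRF2 turns on antioxidant and NADPH-producing genes when electrophiles or oxidants are sensed. Interferon-stimulated genes are induced when type I interferon binds its receptor, and macrophages hold a basal level of many of them through constant low interferon signalling. Selenoproteins contain selenocysteine, an amino acid read from a UGA codon that would otherwise stop translation, and the mRNAs of some of them are known to decline when selenium is short.

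Total counts were 28581306 to 35929596 per library, and all 9 macrophage markers used to check the cell type (among them Adgre1, Csf1r and Cd68) were present. Their summed level was 21100 to 22000 CPM (counts scaled to a common library size with TMM factors) after ApoE-deficient exosomes and 21200 to 21900 CPM after wild-type exosomes. Some exosome libraries stood apart from the rest. In a principal component analysis of the 6 exosome libraries, component 1 (24.1% of the variance) placed replicate 2 of ApoE-deficient exosomes at -38.45 and replicate 2 of wild-type exosomes at 46.93, with the others between -16.87 and 5.75. On this component the ApoE-deficient exosome libraries lay at -38.45 to -2.71 and the wild-type ones at 5.34 to 46.93. Component 2 (23.8%) placed replicate 3 of wild-type exosomes at -56.2, against 2.02 to 19.68 for the others. Component 3 (18.9%) placed replicate 1 of wild-type exosomes at -46.85, against -6.16 to 22.62 for the others. Calls that ended when 1 library was left out are named beside each result. Apoe itself (ENSMUSG00000002985, chromosome 7, 19696109 to 19699188 in GRCm38) was at 19394, 18760 and 18725 CPM after ApoE-deficient exosomes, 20164, 19452 and 19681 CPM after wild-type exosomes, and 18933, 18963 and 20081 CPM after PBS. Its level was high in every library, as the wild-type label of the recipients implies. The difference between the exosome groups was -0.06 ± 0.023 (log2, SE; edgeR adjusted p = 0.384). All ApoE-deficient exosome libraries lay below the wild-type exosome ones, as for 7.01% of genes tested. Apoe was called lower by another test, limma-voom, but not by edgeR. The donor cells, which carry the deletion, were not sequenced among these libraries.

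Few genes differed between the exosome types, and most differences were small. After ApoE-deficient exosomes, 7 of 31 genes of the ATF4 response, 7 of 30 NRF2 targets and 7 of 23 tRNA synthetases and their scaffold proteins were higher than after wild-type exosomes, and none of these lists held a lower call. Lower calls included 11 of 83 interferon-stimulated genes, 5 of 20 selenoproteins, the Fc receptor gene Fcgr1, the 3 chains of C1q and complement C3. In all, 96 of 13815 genes passed the threshold (edgeR adjusted p under 0.05), which is 0.695% of those tested. Of these, 39 were higher (0.282% of genes tested) and 57 lower (0.413%). At an unadjusted p under 0.05 there were 1126. Throughout, a gene that rose or fell was higher or lower after ApoE-deficient than after wild-type exosomes, whatever its level after PBS. The median size of a called difference was 0.25 on the log2 scale, and 60 of them were under 0.3. Only Mthfd2 and Asns among the higher genes and Mmp14 among the lower ones had an absolute log2 fold change of at least 1, with Selenow, at -0.9997, just short of it. The 3 libraries of one exosome group lay wholly above or below the 3 of the other for all 96 called genes. Over all genes tested, such a separation was seen for 972 higher (7.04%) and 968 lower (7.01%). Of the called genes, 37 belonged to the lists of selenoproteins, ATF4 response, tRNA synthetases, NRF2 targets and interferon-stimulated genes. Leaving out 1 library at a time moved the count from 96 to between 52 (without replicate 1 of ApoE-deficient exosomes) and 109 (without replicate 3 of PBS). It was 56 without replicate 2 of ApoE-deficient exosomes, 59 without replicate 2 of wild-type exosomes and 56 without replicate 3 of wild-type exosomes, while 37 genes kept their call whichever single library was left out.

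**Figure D1:**
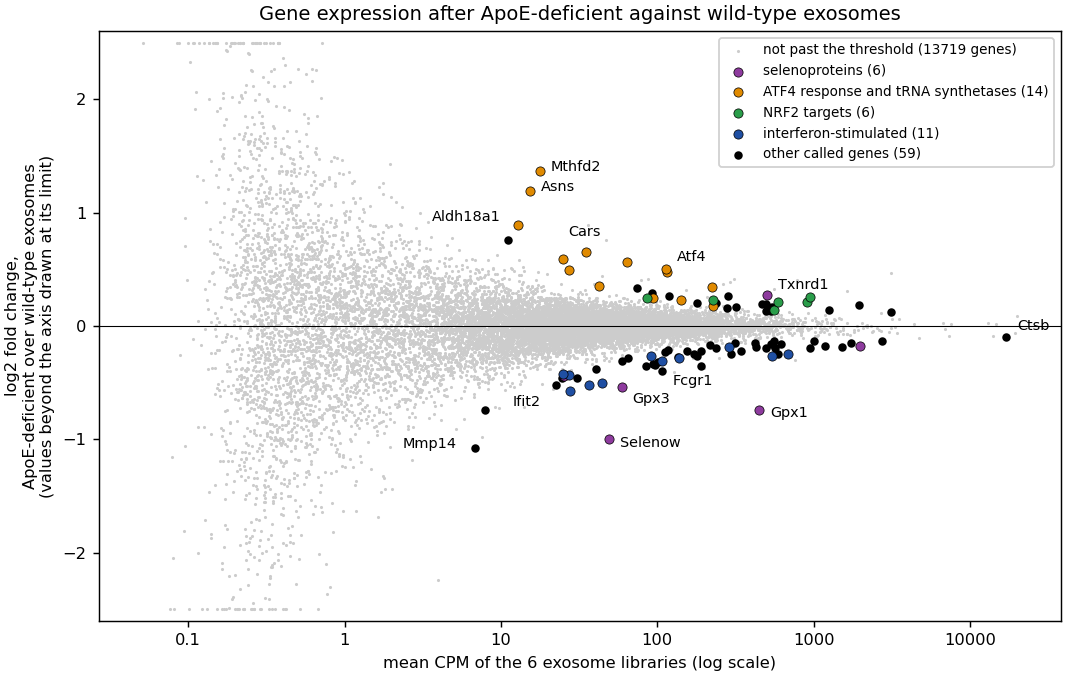
Each point is 1 of the 13815 genes tested, with the mean CPM of the 6 exosome libraries on the x axis (log scale) and the log2 fold change of ApoE-deficient over wild-type exosomes on the y axis (values beyond the axis are drawn at its limit). The 96 called genes are coloured by list, a gene of several lists being drawn in the first that holds it; Mthfd2 (1.37), Asns (1.19), Mmp14 (-1.08) and Selenow (-0.9997) lie farthest from 0, and most other called genes lie within 0.5 of it.

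Selenoprotein mRNAs gave the lowest p-values of the comparison, and they did not move together. Of 20 selenoproteins tested out of 24 listed, 5 were lower after ApoE-deficient exosomes (Gpx1, Selenow, Gpx3, Selenom and Selenop) and 1 was higher (Txnrd1). The median log2 fold change of the 20 was 0.012, against 0.00 for all genes tested. The mean level of the list, on a log2(CPM + 1) scale, was nevertheless lower in each library of ApoE-deficient exosomes than in each of wild-type exosomes, so median and mean differ in sign. In each of these mRNAs the reading frame holds an in-frame TGA that is read as selenocysteine. The coding stretches around the first such codon of the called members are shown because the data turn on these mRNAs. They were read from GENCODE M21 transcripts (GRCm38), 5′ to 3′ on the coding strand, with the selenocysteine codon in capitals.
Gpx1: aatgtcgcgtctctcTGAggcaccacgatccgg
Selenow: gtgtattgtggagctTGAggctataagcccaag
Gpx3: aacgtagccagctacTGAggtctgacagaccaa
Selenom: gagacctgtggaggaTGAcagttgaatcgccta
Selenop: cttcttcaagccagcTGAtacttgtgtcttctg
Txnrd1: ctccagtctggctgcTGAggt
The printed codon lies on chromosome 9 at 108339451 to 108339453 in Gpx1 (exon 1 of 2), on chromosome 7 at 15920464 to 15920466 in Selenow (exon 2 of 6) and on chromosome 11 at 54907256 to 54907258 in Gpx3 (exon 2 of 5). It lies on chromosome 11 at 3516273 to 3516275 in Selenom (exon 2 of 5), on chromosome 15 at 3274848 to 3274850 in Selenop (exon 2 of 5, the first of 10 such codons) and on chromosome 10 at 82896037 to 82896039 in Txnrd1 (exon 15 of 15). Txnrd1 thus differs from the 5 lower members in that its codon sits in the last exon, a single codon before the end of the reading frame.

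Gpx1 encodes the cytosolic glutathione peroxidase, which reduces hydrogen peroxide (ENSMUSG00000063856, chromosome 9, 108338903 to 108340343). It was at 333, 345 and 330 CPM after ApoE-deficient exosomes, 571, 560 and 552 CPM after wild-type exosomes, and 393, 378 and 409 CPM after PBS. The 3 groups did not overlap, with ApoE-deficient exosomes lowest and wild-type exosomes highest. The log2 fold change between the exosome types was -0.74 ± 0.035 (SE; edgeR adjusted p = 1.64e-17), a change of -40.1% with an unadjusted 95% interval of the change from -42.9% to -37.1%. Against PBS the log2 fold change of Gpx1 was -0.23 for ApoE-deficient exosomes (edgeR adjusted p = 1.93e-05) and 0.51 for wild-type exosomes (7.95e-13), both contrasts using the same PBS libraries.

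Selenow, a small selenoprotein of the thioredoxin-like fold, was at 32.9, 32.3 and 33.4 CPM after ApoE-deficient exosomes and 71.5, 59.9 and 65.7 CPM after wild-type exosomes, with 42.1, 33.3 and 38.3 CPM after PBS. Its level after ApoE-deficient exosomes was 0.5 times that after wild-type exosomes (-0.9997 ± 0.086 on the log2 scale, edgeR adjusted p = 9.17e-10). Gpx3, the secreted glutathione peroxidase, was at 49.4, 46.4 and 49.1 CPM against 76.3, 67.6 and 66.6 CPM, with 49.8, 46.7 and 49.3 CPM after PBS (-0.54 ± 0.072, edgeR adjusted p = 1.32e-05). For both genes the ApoE-deficient exosome libraries lay at or just under the PBS libraries and the wild-type exosome libraries above them. Selenom, a selenoprotein of the endoplasmic reticulum, was at 19.6, 22.9 and 22.3 CPM against 28.0, 27.8 and 31.9 CPM (-0.44 ± 0.11, edgeR adjusted p = 0.0403). Its call ended without any 1 of the 6 exosome libraries, the adjusted p then being 0.0591 to 0.324. Selenop, the secreted protein that carries selenium between cells, fell by a smaller amount, from 2086.1, 2075.5 and 2104.9 CPM after wild-type exosomes to 1864.3, 1873.6 and 1811.6 CPM (-0.18 ± 0.027, edgeR adjusted p = 0.000118). Exons of another gene overlap 15.4% of the exon length of Selenop.

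Txnrd1, the cytosolic thioredoxin reductase and also an NRF2 target, was at 561, 553 and 552 CPM after ApoE-deficient exosomes, 489, 442 and 443 CPM after wild-type exosomes and 555, 487 and 531 CPM after PBS. It was therefore higher after ApoE-deficient exosomes (0.28 ± 0.039, edgeR adjusted p = 3.49e-05). Of the members that did not pass, Selenoh, a nuclear selenoprotein, was at 5.06, 8.67 and 7.07 CPM against 10.1, 13.4 and 10.5 CPM (-0.71 ± 0.20, edgeR adjusted p = 0.101). Selenon had a log2 fold change of -0.18 (adjusted p = 0.103) and Dio2, the thyroid hormone deiodinase, one of 0.49 (adjusted p = 0.118), and both passed with another test (DESeq2). Of the 12 genes that make or insert selenocysteine, Sars, the seryl-tRNA synthetase, was the one called.

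The annotated position of the selenocysteine codon differed along the order of the fold changes. This split was not among the planned comparisons, and earlier results of these data were known. In 12 of the 20 tested members the first such codon is followed by at least 1 exon junction in the transcript used, and 9 of these 12 had a log2 fold change below 0, the 5 lower calls among them. In the other 8, which include Txnrd1, Txnrd2, Txnrd3, Dio2, Selenos, Selenoo, Selenoi and Sephs2, the codon lies in the last or the only exon, and none had a value below 0 (edgeR unadjusted p under 0.05 for 3 higher and 8 lower of all 20 members). Of these 8 only Txnrd1, also an NRF2 target, was called, and the lowest value was 0.02 for Selenoi. The distance from the codon to the last junction was 243 bases in Selenow, 105 in Gpx1, 240 in Gpx3, 135 in Selenom and 357 in Selenop. The exceptions were Selenok, with 5 bases, Gpx4, with 342, and Msrb1, with 66, whose log2 fold changes were 0.16, 0.06 and 0.01. As background, a UGA that is not read as selenocysteine and lies well before the last exon junction can mark an mRNA for nonsense-mediated decay. Selenoprotein translation and RNA stability were not measured, and the part of codon position in these differences was not tested.

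**Figure D2:**
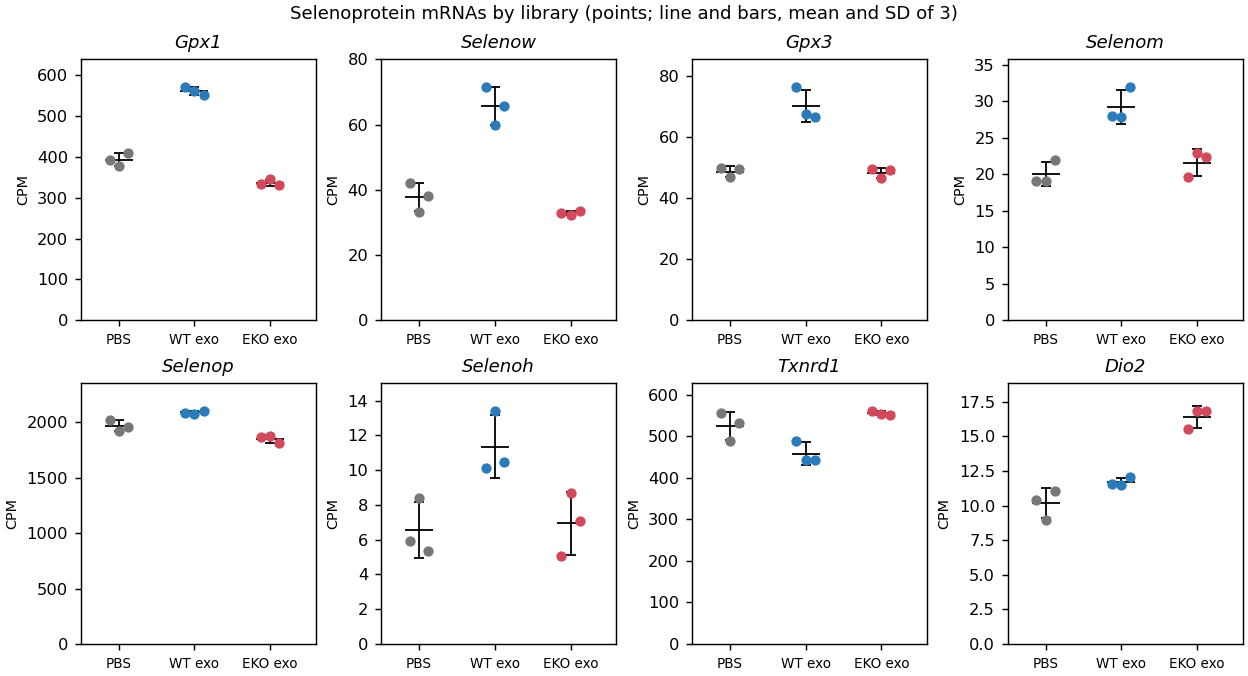
CPM of 8 selenoprotein mRNAs in each library after PBS, wild-type exosomes (WT exo) and ApoE-deficient exosomes (EKO exo); points are libraries, and lines and bars are the mean and SD of 3. Gpx1, Selenow, Gpx3 and Selenom are highest after wild-type exosomes, while the Txnrd1 and Dio2 libraries of ApoE-deficient exosomes lie above those of wild-type exosomes.

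Genes of the ATF4 amino acid response were higher after ApoE-deficient than after wild-type exosomes. Of 31 tested, 7 rose and none fell at the threshold, with 14 higher and 0 lower at an unadjusted p under 0.05, and 7 higher and 0 lower by DESeq2 and by limma-voom alike. The median log2 fold change was 0.27, and 27 of the 31 were above 0. Against PBS, the median of the list was 0.092 for ApoE-deficient and -0.246 for wild-type exosomes. Mthfd2, a mitochondrial enzyme that uses folate-bound one-carbon units (chromosome 6, 83305691 to 83325908), was at 22.2, 29.1 and 25.2 CPM after ApoE-deficient exosomes, 8.35, 7.82 and 13.5 CPM after wild-type exosomes, and 18.8, 22 and 20.3 CPM after PBS. The wild-type exosome libraries were the low ones, 2.58-fold below those of ApoE-deficient exosomes (1.37 ± 0.15, edgeR adjusted p = 3.12e-07). Asns, asparagine synthetase (chromosome 6, 7675169 to 7693254), was at 18.2, 21.1 and 25.2 CPM against 8.77, 10.4 and 9.14 CPM, with 13.8, 18.3 and 14.6 CPM after PBS (1.19 ± 0.14, edgeR adjusted p = 2.11e-06). Aldh18a1, which catalyses the first steps of proline synthesis, was at 14.4, 18.7 and 17.3 CPM against 8.62, 10.5 and 7.97 CPM (0.89 ± 0.14, edgeR adjusted p = 0.000295). For these 3 biosynthetic genes no library of one exosome type overlapped those of the other.

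The transcription factors themselves moved less. Atf4 was at 133, 140 and 129 CPM after ApoE-deficient exosomes, 89.6, 94.2 and 99.2 CPM after wild-type exosomes and 117, 118 and 118 CPM after PBS, so PBS lay between the exosome types without overlap (0.51 ± 0.052, edgeR adjusted p = 6.97e-08). Atf5, a related factor, was at 75.4, 80.3 and 74.0 CPM against 50.2, 54.0 and 51.1 CPM (0.56 ± 0.071, edgeR adjusted p = 4.26e-06). Against PBS, the log2 fold change of Atf4 was 0.19 for ApoE-deficient exosomes (edgeR adjusted p = 0.0238) and -0.32 for wild-type exosomes (7.74e-05). Among amino acid transporters of the list, Slc38a2 for small neutral amino acids rose by 0.34 ± 0.050 (edgeR adjusted p = 5.77e-05). Slc7a1 for cationic amino acids rose by 0.50 ± 0.11 (edgeR adjusted p = 0.0185). The call of Slc7a1 ended without replicate 1, 2 or 3 of ApoE-deficient exosomes (adjusted p = 0.0558, 0.183 and 0.0525) or without replicate 1 of wild-type exosomes (0.218), whereas the other 6 kept theirs without any 1 library. The uncalled members with the lowest p were Gpt2 (0.41, edgeR adjusted p = 0.232), Slc7a11, the cystine importer (0.48, 0.321), and Slc7a5, a transporter of large neutral amino acids (0.79, 0.339). Ddit3, the stress factor CHOP, had a log2 fold change of -0.16 and Atf3 of 0.00 and did not pass, the pair being named after their values were seen.

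The tRNA-charging enzymes, many of which are ATF4 targets, were split. Of 23 cytosolic aminoacyl-tRNA synthetases and their scaffold proteins, all tested, 7 rose and none fell at the threshold, with 10 higher and 0 lower at an unadjusted p under 0.05 and 7 higher by DESeq2 and by limma-voom. The median of the list was 0.057. Against PBS it was 0.108 for ApoE-deficient and -0.02 for wild-type exosomes. Aars, alanyl-tRNA synthetase, was at 134, 135 and 135 CPM after ApoE-deficient exosomes, 96.8, 98.5 and 95.2 CPM after wild-type exosomes and 114, 110 and 127 CPM after PBS (0.48 ± 0.053, edgeR adjusted p = 3.31e-07). Its libraries were close together within each exosome type, although exons of another gene overlap 15.1% of its exon length. Cars, cysteinyl-tRNA synthetase, was at 41.5, 43.7 and 43.7 CPM against 26.4, 27.5 and 28.2 CPM (0.65 ± 0.090, edgeR adjusted p = 2.2e-05). Yars, tyrosyl-tRNA synthetase, was at 26.6, 31.9 and 31.6 CPM against 19.9, 18.7 and 21.3 CPM (0.59 ± 0.105, edgeR adjusted p = 0.00118). These 3 kept their call without any 1 library. The other 4 were Mars (0.35), Sars (0.24), Eprs (0.23) and Nars (0.18), which charge methionine, serine, glutamate with proline, and asparagine. Their calls were lost in several of the fits without 1 exosome library (highest adjusted p 0.256, 0.257, 0.137 and 0.264), so that 3 to 5 synthetases passed without 1 of the 6 exosome libraries. At the other end, Dars, Farsb, Aimp1 and Aimp2 had values of -0.08 to -0.21 and none passed.

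The proximal promoters of these genes were read for the C/EBP-ATF response element, searched as TGATGNAA on both strands. Windows from 250 bases before to 50 after each RefSeq start (GRCm38.p6) held it in 9 of 33 windows of the tested ATF4 list (27.3%), against 3.97% of all 32851 windows. Of the 7 called members, Asns alone had a match in its window. The stretch of the Asns promoter that holds the match (chr6:7693210-7693329, minus strand) is shown because this gene combines the element with the second largest increase. The match is in capitals, 23 bases before the start.
Asns: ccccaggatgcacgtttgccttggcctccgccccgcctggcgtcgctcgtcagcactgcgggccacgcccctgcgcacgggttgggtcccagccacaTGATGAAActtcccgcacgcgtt

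NRF2 targets were also higher after ApoE-deficient than after wild-type exosomes, by smaller amounts. Of 30 tested, 7 rose and none fell at the threshold (19 higher and 0 lower at an unadjusted p under 0.05, and 12 higher and 0 lower by DESeq2 and by limma-voom), with a median of 0.14. Against PBS, the median of the list was 0.033 for ApoE-deficient and -0.173 for wild-type exosomes, both contrasts using the same PBS libraries. Pgd, which makes NADPH in the pentose phosphate pathway, was at 1065.6, 1025.8 and 1024.9 CPM after ApoE-deficient exosomes, 900.4, 865 and 843 CPM after wild-type exosomes and 1073.8, 993 and 1059.7 CPM after PBS. Its PBS and ApoE-deficient exosome libraries overlapped, and those of wild-type exosomes lay below both (0.26 ± 0.032 between exosome types, edgeR adjusted p = 3.61e-06). Hmox1, heme oxygenase 1, was at 1007.7, 984 and 947 CPM against 876, 855 and 806 CPM, with 1106.5, 1035.7 and 1033.3 CPM after PBS (0.21 ± 0.033, edgeR adjusted p = 0.000183). Prdx1, a peroxiredoxin, was at 657, 612 and 646 CPM against 571, 554 and 525 CPM (0.21 ± 0.037, edgeR adjusted p = 0.000749). Together with Txnrd1, described above, these kept their call without any 1 library.

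Srxn1, which repairs oxidised peroxiredoxins, rose by 0.23 (edgeR adjusted p = 0.00253, but 0.119 without replicate 1 of ApoE-deficient exosomes). Gclc, the catalytic subunit that starts glutathione synthesis, rose by 0.25 (adjusted p = 0.0345, and 0.0678 to 0.268 without any 1 of the 6 exosome libraries). Taldo1, transaldolase of the pentose phosphate pathway, rose by 0.14 (adjusted p = 0.0397). Its call ended without any ApoE-deficient exosome library or without replicate 2 or 3 of wild-type exosomes (up to 0.307). For Srxn1, Gclc and Taldo1 against PBS, ApoE-deficient exosomes gave 0.13, 0.04 and 0.03 (edgeR adjusted p = 0.0801, 0.893 and 0.867). Wild-type exosomes gave -0.10, -0.21 and -0.11 (0.295, 0.0362 and 0.0513). The number of NRF2 targets called was 4 without replicate 1 of ApoE-deficient exosomes, 5 without replicate 2 or 3 of wild-type exosomes, and 10 without replicate 1 or 3 of PBS. In the heme and iron list, Slc40a1, the iron exporter ferroportin, was like Hmox1 higher after ApoE-deficient than after wild-type exosomes. It was at 490, 483 and 515 CPM against 445, 424 and 435 CPM, with 511, 496 and 518 CPM after PBS (0.19 ± 0.034 between exosome types, edgeR adjusted p = 0.00118). Against PBS its log2 fold change was -0.04 for ApoE-deficient exosomes (edgeR adjusted p = 0.78) and -0.23 for wild-type exosomes (2.11e-05). Fth1, ferritin heavy chain, had a log2 fold change of 0.09 (adjusted p = 0.0782).

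**Figure D3:**
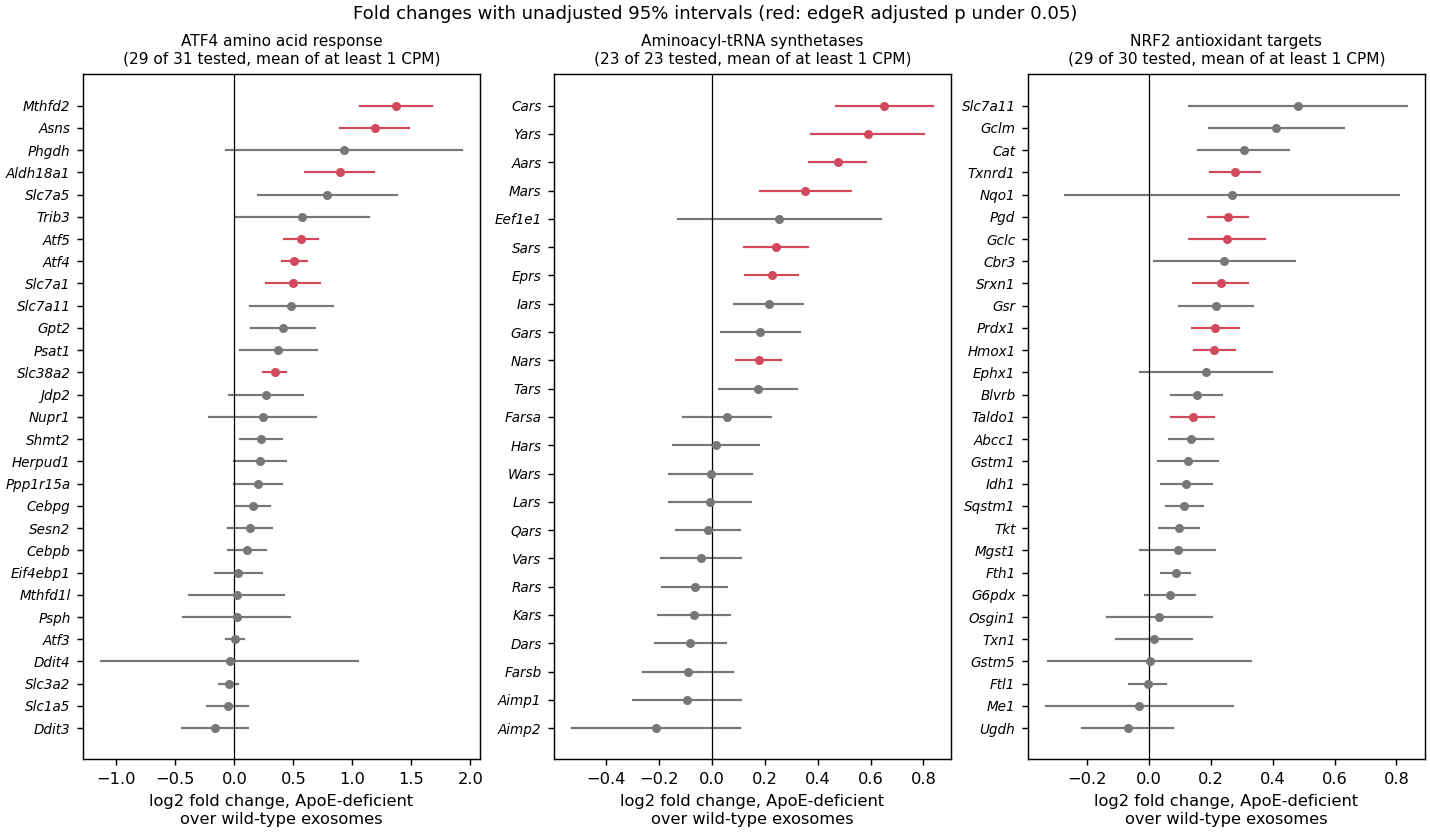
Log2 fold changes of ApoE-deficient over wild-type exosomes (x axis) with unadjusted 95% intervals for the tested members of 3 lists with a mean of at least 1 CPM over the 6 exosome libraries; red marks an edgeR adjusted p under 0.05. The 7 red genes of each list lie above 0, and the ATF4 list reaches 1.37 while the NRF2 targets stay under 0.5.

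The antioxidant response element, searched as TGACNNNGC on both strands, was found in 10 of 35 promoter windows of the tested NRF2 list (28.6%), against 12.4% of all windows. The windows covered 26 of the 30 tested members and 5 of the 7 called ones, and Hmox1 and Gclc were not searched. Among called members it was in 4 of 8 windows, those of Prdx1, Txnrd1, Srxn1 and Pgd, and in the last pair the match lay after the start. The upstream matches of Prdx1 (chr4:116685410-116685529, plus strand, 133 bases before the start) and Txnrd1 (chr10:82859058-82859177, plus strand, 92 bases before the start) are shown with the match in capitals, which reads as the reverse complement, GCNNNGTCA. They give the sequence context of 2 called genes that moved together.
Prdx1: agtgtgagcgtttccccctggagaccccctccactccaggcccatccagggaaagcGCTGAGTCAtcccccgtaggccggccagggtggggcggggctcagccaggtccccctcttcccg
Txnrd1: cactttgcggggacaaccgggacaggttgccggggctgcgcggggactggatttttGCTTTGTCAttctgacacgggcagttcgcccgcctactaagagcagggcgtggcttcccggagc

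Interferon-stimulated genes were lower after ApoE-deficient exosomes, with a wide spread between libraries. Of 83 tested, 11 fell and none rose (49 lower and 0 higher at an unadjusted p under 0.05, 13 lower by DESeq2 and 15 lower by limma-voom, with 0 higher in both). The median log2 fold change was -0.26, and 75 of 83 were below 0. In 40 of the 83 all ApoE-deficient exosome libraries lay below all wild-type exosome libraries, and in none above. The mean log2 level of the list relative to the 9 libraries was -0.21, -0.311 and -0.046 in replicates 1, 2 and 3 of ApoE-deficient exosomes, 0.036, 0.04 and 0.073 after wild-type exosomes, and 0.055, 0.228 and 0.134 after PBS. Replicate 3 of ApoE-deficient exosomes was thus nearest to the other groups. Without it 23 members passed, and without replicate 1 or 2 of that group 5 or 3 did. The number was 6, 7 and 4 without replicates 1, 2 and 3 of wild-type exosomes.

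Lgals3bp, a secreted galectin-3 binding glycoprotein, was at 615, 595 and 673 CPM after ApoE-deficient exosomes, 741, 713 and 787 CPM after wild-type exosomes and 699.5, 731 and 739 CPM after PBS (-0.25 ± 0.038, edgeR adjusted p = 0.000102). Stat2, the interferon signal transducer, was at 92.2, 90.7 and 104 CPM against 118, 117 and 120 CPM, with 114, 122 and 107 CPM after PBS (-0.31 ± 0.057, edgeR adjusted p = 0.00158). Ly6e, an interferon-induced membrane protein that restricts viral entry, was at 496, 447 and 540.4 CPM against 601, 576 and 611 CPM, with 674, 704 and 701 CPM after PBS (-0.27 ± 0.045, edgeR adjusted p = 0.00172). These 3 kept their call whichever single library was left out, although the call of Ly6e ended when the 6 exosome libraries were fitted without PBS (adjusted p = 0.0755). Ifit2, which binds RNA, had the lowest log2 fold change of the 11 called members, its level falling from 35.4, 28.0 and 36.6 CPM to 21.9, 18.8 and 26.3 CPM (-0.58 ± 0.12, edgeR adjusted p = 0.00587). Ifi27l2a was at 29.7, 28.0 and 32.3 CPM against 41.4, 44.4 and 43.7 CPM (-0.52 ± 0.10, edgeR adjusted p = 0.00318). The call of Ifi27l2a ended without replicate 2 of ApoE-deficient exosomes (0.057). That of Ifit2 ended without replicate 1 or 2 of ApoE-deficient exosomes (0.0735 and 0.145) or replicate 1 or 3 of wild-type exosomes (0.0591 and 0.107). The other called members were Helz2 (-0.28), Parp14 (-0.19), Bst2 (-0.26), Slfn9 (-0.42), Irf7 (-0.50), the amplifying interferon transcription factor, and Oas1a (-0.43), each lost without at least 3 of the exosome libraries taken 1 at a time. Members that did not pass in edgeR included the antiviral enzyme Rsad2 at 14.9, 14.7 and 23 CPM against 24.9, 24 and 28.6 CPM (-0.56, edgeR adjusted p = 0.0589), Rtp4 (-0.28, 0.0801) and Mndal (-0.30, 0.0841). Of these, Rsad2 and Rtp4 passed with DESeq2 or limma-voom.

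The interferon-stimulated response element, searched on both strands as 2 copies of GAAA with any 2 bases between them, was in 42 of 78 promoter windows of the tested list (53.8%) and in 3.44% of all windows. The windows covered 65 of the 83 tested members. They covered 8 of the 11 called ones, with 9 windows, and Ly6e, Parp14 and Ifi27l2a were not searched. The match was in 4 of these 9 windows, of Oas1a, Bst2, Stat2 and Slfn9. The Oas1a (chr5:120907526-120907645, minus strand) and Bst2 (chr8:71537532-71537651, minus strand) stretches are shown because each holds 2 overlapping matches, marked in capitals as 1 run.
Oas1a: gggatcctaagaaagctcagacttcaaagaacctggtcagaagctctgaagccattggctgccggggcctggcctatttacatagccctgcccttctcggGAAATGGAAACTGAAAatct
Bst2: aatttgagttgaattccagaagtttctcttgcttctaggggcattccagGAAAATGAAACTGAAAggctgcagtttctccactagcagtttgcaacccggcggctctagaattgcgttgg

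**Figure D4:**
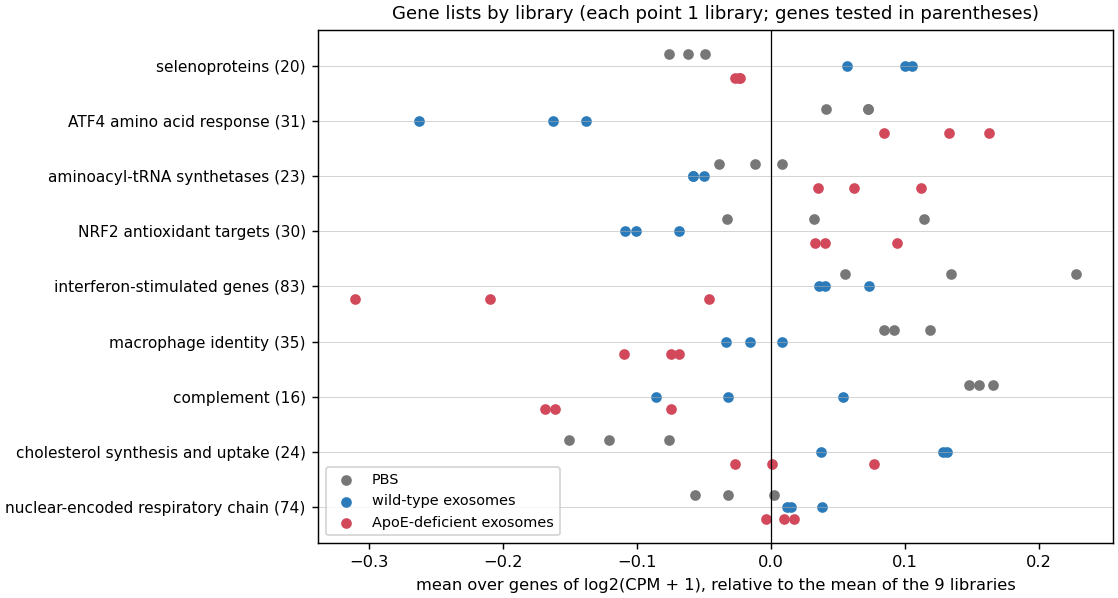
Mean log2(CPM + 1) of the tested genes of 9 lists in each library, relative to the mean of the 9 libraries (x axis); each point is 1 library and the number of genes stands in parentheses. The ATF4 list is lowest in the 3 libraries of wild-type exosomes and the interferon-stimulated genes in the 3 of ApoE-deficient exosomes, whereas respiratory chain genes overlap between the exosome types.

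A few genes that mark macrophages were lower after ApoE-deficient than after wild-type exosomes, and most did not pass. Of 35 macrophage identity genes tested, 5 fell (Fcgr1, Siglec1 and the C1q chains C1qa, C1qb and C1qc) and none rose (12 lower and 0 higher at an unadjusted p under 0.05, 6 lower by DESeq2 and 5 by limma-voom, with 0 higher in both), and the median was -0.05. Fcgr1, the high-affinity receptor for IgG (chromosome 3, 96282909 to 96293969), was at 91.5, 89.7 and 96.0 CPM after ApoE-deficient exosomes, 119, 119 and 127 CPM after wild-type exosomes and 130.5, 143 and 141 CPM after PBS. The 3 groups did not overlap (-0.39 ± 0.052 between exosome types, edgeR adjusted p = 9.58e-06). Against PBS, Fcgr1 was at -0.58 for ApoE-deficient exosomes (edgeR adjusted p = 6.61e-10) and -0.18 for wild-type exosomes (0.0289). Siglec1, a sialic acid-binding receptor, was at 267, 255 and 286 CPM against 316, 323 and 321 CPM, with 312, 314 and 339 CPM after PBS (-0.25 ± 0.041, edgeR adjusted p = 0.000324). Siglec1 is also induced by interferon in myeloid cells. Fcrls, an Fc receptor-like protein of macrophages and microglia, which with Fcgr1 made the 2 calls among 17 Fc receptors and adaptors, was at 170.3, 155 and 166 CPM against 197, 208 and 184 CPM (-0.26 ± 0.047, edgeR adjusted p = 0.00146).

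The 3 chains of C1q, which starts the classical complement cascade and is made largely by macrophages, were all lower. C1qa was at 409, 396 and 402 CPM after ApoE-deficient exosomes, 449.7, 459 and 462 CPM after wild-type exosomes and 553, 563 and 548 CPM after PBS (-0.18 ± 0.032, edgeR adjusted p = 0.000877). C1qc was at 1429.3, 1400.0 and 1445.5 CPM against 1594.8, 1655.8 and 1598.3 CPM (-0.18 ± 0.029, edgeR adjusted p = 0.000183), and C1qb fell by 0.15 (adjusted p = 0.0038). C3, the central complement component, was at 129, 128 and 113 CPM against 147, 155 and 144 CPM, with 227, 201 and 194 CPM after PBS (-0.27 ± 0.054, edgeR adjusted p = 0.00399). These 4 were the called genes among 16 complement genes, the 3 C1q chains being the same as those counted among the macrophage identity genes, and none of the 16 rose (7 lower and 0 higher at an unadjusted p under 0.05, 5 lower and 0 higher by DESeq2 and by limma-voom). The call of C1qb ended without replicate 2 of ApoE-deficient exosomes (0.0523) or of wild-type exosomes (0.0922), and that of C3 without replicate 3 of ApoE-deficient exosomes (0.0702) or replicate 2 of wild-type exosomes (0.0708).

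Of 27 metalloproteinase and matrix genes tested, Thbs1, Mmp14 and Ecm1 fell and none rose (1 higher and 4 lower at an unadjusted p under 0.05, and the same 3 lower by DESeq2 and by limma-voom). Thbs1, which encodes thrombospondin 1, was at 171, 169 and 159.9 CPM after ApoE-deficient exosomes against 193, 229 and 219 CPM after wild-type exosomes, with 273, 283 and 296 CPM after PBS (-0.36 ± 0.048, edgeR adjusted p = 1.4e-05). Each exosome group lay below PBS, the ApoE-deficient one lower. Mmp14, a membrane-bound matrix protease, was at 4.28, 3.88 and 4.98 CPM against 6.43, 11.6 and 9.79 CPM, with 11.2, 13.2 and 8.07 CPM after PBS (-1.08 ± 0.21, edgeR adjusted p = 0.00321). It had the lowest mean level of the called genes, and its call ended without replicate 2 of ApoE-deficient exosomes (0.0551) or of wild-type exosomes (0.0862). Ecm1, a secreted matrix protein, fell by 0.25 (adjusted p = 0.00409), but not without replicate 1 or 2 of ApoE-deficient exosomes (0.0653 and 0.103) or replicate 3 of wild-type exosomes (0.0577). The mean log2 level of the matrix list relative to the 9 libraries was -0.32, -0.199 and 0.061 in replicates 1, 2 and 3 of ApoE-deficient exosomes and 0.055, 0.194 and -0.004 after wild-type exosomes. That of 12 stromal and endothelial markers, with which it shares Col1a1 among tested genes, was -0.592, -0.26 and 0.232 against 0.058, 0.227 and -0.096. Among the 6 exosome libraries, both lists were thus lowest in replicates 1 and 2 of ApoE-deficient exosomes. They were highest there in replicate 3 of that group or replicate 2 of wild-type exosomes. After PBS the matrix list was at -0.101, -0.012 and 0.327 and the stromal markers at -0.268, -0.063 and 0.76, so replicate 3 of PBS was highest of all in both. The part of stromal RNA in the matrix differences was not tested. Tgm2, the protein-crosslinking transglutaminase, was listed among alternative activation genes and was at 524, 546 and 546 CPM against 598, 641 and 676 CPM, with PBS between at 560.1, 578 and 622 CPM (-0.24 ± 0.038, edgeR adjusted p = 0.000183). Exons of another gene overlap 21.8% of its exon length.

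**Figure D5:**
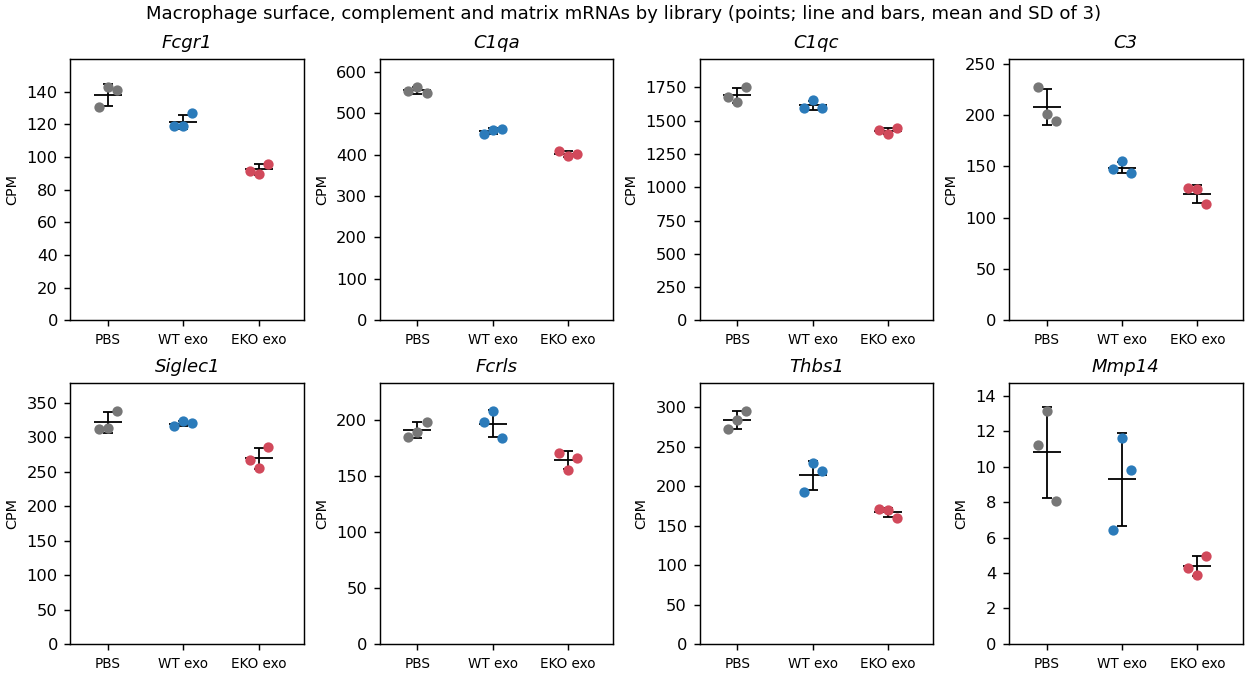
CPM of 8 macrophage surface, complement and matrix mRNAs in each library after PBS, wild-type exosomes (WT exo) and ApoE-deficient exosomes (EKO exo); points are libraries, and lines and bars are the mean and SD of 3. In all 8 the libraries of ApoE-deficient exosomes lie below those of wild-type exosomes, and for Fcgr1, C1qa, C3 and Thbs1 the PBS libraries lie above both exosome groups.

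Lipid, lysosomal and inflammatory genes differed little between the exosome types. Of 21 LXR targets and cholesterol efflux genes, Abca1, the exporter that loads cholesterol onto apolipoproteins, and Pltp, the phospholipid transfer protein, fell, and none rose (2 higher and 3 lower at an unadjusted p under 0.05, and 1 higher with 2 lower by DESeq2 or 3 lower by limma-voom). Abca1 was at 503, 507 and 508 CPM after ApoE-deficient exosomes, 549.9, 593 and 557 CPM after wild-type exosomes and 684, 653 and 669.9 CPM after PBS (-0.16 ± 0.033, edgeR adjusted p = 0.00456, and 0.107 without replicate 2 of wild-type exosomes). Pltp fell by 0.18 ± 0.034 (edgeR adjusted p = 0.00254), with exons of Ctsa over 19.3% of its exon length. Lpl, lipoprotein lipase, was just outside the threshold at 0.12 (edgeR adjusted p = 0.0501) and passed with DESeq2 and limma-voom. The lower genes of limma-voom were Abca1, Pltp and Apoe. In the lysosomal list of 61 genes, Lipa, the acid lipase that frees cholesterol from its esters, rose by 0.12. The protease Ctsb was lower by 0.10 after ApoE-deficient than after wild-type exosomes, and the progranulin gene Grn by 0.13. Against PBS, Ctsb was higher by 0.10 after ApoE-deficient exosomes (edgeR adjusted p = 0.0028) and by 0.19 after wild-type exosomes (1.1e-07). In the same order, Grn was at 0.04 (0.647) and 0.17 (4.16e-05), and Lipa at 0.05 (0.444) and -0.07 (0.168). Each of the lysosomal calls between exosome types ended without at least 1 exosome library (highest adjusted p 0.194 for Lipa, 0.15 for Ctsb and 0.0845 for Grn), and exons of another gene overlap 12.8% of the exon length of Ctsb. Of 40 inflammatory and NF-kB target genes, Marcksl1 fell by 0.46 ± 0.096 (edgeR adjusted p = 0.00728) and Tnfaip2 rose by 0.17 ± 0.033 (0.00285). The call of Marcksl1 ended without replicate 1 of ApoE-deficient exosomes (0.0513) or replicate 2 of wild-type exosomes (0.0708). The cytokine Il1b was at 1.34, 0.629 and 1.04 CPM against 2.5, 2.23 and 2.87 CPM and did not pass in edgeR (-1.32, adjusted p = 0.0841). DESeq2 called it lower and limma-voom did not.

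Ms4a4a and Ms4a6c, four-span membrane proteins of macrophages, fell by 0.74 and 0.28 among 9 Tmem176 and Ms4a genes, and both calls were lost in 5 of the 9 fits without 1 library. Exons of another gene overlap 53.1% of the exon length of Ms4a6c, so its reads are uncertain. Single members of other lists were H2-K1, an MHC class I heavy chain (-0.14), Mcm6, a subunit of the replicative helicase (-0.21), Clec4d, a C-type lectin (0.13), the glycolytic enzyme Pkm (0.14) and the tetraspanin Cd9 (0.15). Each of these was lost without at least 3 of the exosome libraries taken 1 at a time, and exons of another gene overlap 15.3% of the exon length of Pkm and 10.7% of that of Cd9. Of the 96 called genes, 32 were in no list. The GM-CSF receptor was among them in both directions. Its alpha chain Csf2ra rose by 0.19 (edgeR adjusted p = 0.00118), while the beta chain genes Csf2rb and Csf2rb2 fell by 0.15 and 0.135 (0.0297 and 0.0397). Csf2rb and Csf2rb2 are near-identical neighbours that can share reads, and both calls were lost in 5 of the 9 fits without 1 library. Unlisted genes that kept their call without any 1 library were Slc7a8, a neutral amino acid transporter (-0.22), Slc15a3, a lysosomal peptide transporter (-0.19), Rnf128, a ubiquitin ligase (0.27), Creg1, a lysosomal glycoprotein (0.185), Adamts10, a secreted protease (0.33), and Csf2ra. Exons of another gene overlap 28.1% of the exon length of Slc15a3. Among those that did not were Tent5c, a poly(A) polymerase (-0.35), Lgals9, galectin 9 (-0.32), and Aoah, which inactivates endotoxin (-0.52).

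No member was called in 20 further lists, which together held 456 tested genes. They covered chemokines, MHC class II, toll-like receptors, paired inhibitory receptors, miR-146a targets, immediate early genes, cholesterol and fatty acid synthesis, lipid storage, scavenger receptors, the TCA cycle, fatty acid oxidation, the respiratory chain, protein folding, the proteasome, mitosis, integrins, osteoclast-like fusion and hypoxia. At an unadjusted p under 0.05, 12 of these genes were higher and 37 lower. DESeq2 called 6 of them lower (Axl, Cpt1a, Idh3g, Itga6, Pf4 and Unc93b1) and none higher, and limma-voom called 1 lower. Cholesterol synthesis and uptake had a median of -0.11 and the 74 respiratory chain genes one of -0.02. Of the markers of other cell types, 37 genes in 7 lists were tested and none was called, with 1 higher and 3 lower at an unadjusted p under 0.05 and 1 lower by DESeq2. Their summed levels, without TMM factors, were 191 to 207 CPM after ApoE-deficient and 210 to 225 CPM after wild-type exosomes for neutrophils, mostly from Csf3r. They were 39.5 to 56.1 against 29.0 to 40.2 CPM for B cells, 325 to 359 against 345 to 363 CPM for T and NK cells, and 3.95 to 6.37 against 7.42 to 9.35 CPM for erythroid cells and megakaryocytes. Stromal and endothelial markers summed to 207 to 243 against 211 to 247 CPM, mostly from Vwf, dendritic cell markers to 21.2 to 24.5 against 22.9 to 23.3 CPM, and mast cell and basophil markers to 2.56 to 3.88 against 2.66 to 3.38 CPM. The neutrophil and erythroid ranges did not overlap between the exosome types, and their part in the differences above was not tested. In bulk RNA, fewer cells of a type and less RNA per cell cannot be told apart.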

How the data were processed

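RNA-seq was measured in 9 libraries of 3 groups. The authors deposited a table of raw counts per Ensembl gene, a column per library. The submitters' processing notes name STAR 2.7.5c and GRCm38. Which annotation was counted, and with what strand setting, is not given in the sources used here, so reads of overlapping genes cannot be assigned with certainty. All 55536 IDs had a symbol in GENCODE M21.

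Genes were filtered with filterByExpr (minimum count 10), scaled by TMM (factors 0.995 to 1.01) and tested with edgeR 4.0.16 (quasi-likelihood, robust, R 4.3.3) in a fit of all 9 libraries, so that the groups share an estimate of the spread. P-values were adjusted by Benjamini-Hochberg over 13815 genes, threshold 0.05. SEs were derived from the F statistics. DESeq2 1.42.0 and limma-voom (limma 3.58.1) were alternatives. The biological coefficient of variation was 12%. Exact permutation tests of single genes, whose smallest two-sided p is 0.1 here, were not run. Counts of library pairs differed by more than sampling noise within groups (chi-square per gene 6.76 to 10.2), and no library was merged.

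In simulated counts for this comparison (13815 genes), edgeR recovered 28% of genes changed 1.25-fold, 54% at 1.5-fold, 66% at 2-fold and 70% at 3-fold, and 4.4% of its calls were false.

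The comparison, the 49 gene lists and the alternatives were chosen with earlier results of these data known. Genes given with values in every library were those of the 10 highest and 10 lowest log2 fold changes (called, mean level of 5 CPM or more in the exosome libraries, exosome groups not overlapping, no predicted gene), the 6 lowest p, Apoe, and in each list up to 6 called and 3 uncalled members by lowest p. Other called genes could be named with their log2 fold change. Promoters are RefSeq windows of GRCm38.p6, and the transcript used for a selenoprotein was the one with the most annotated selenocysteine codons, then the longest coding sequence. No protein sequence was used here.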

Additional observations from a re-analysis of the deposited data

How the results depend on the processing

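No called gene changed direction under the 17 alternatives run, and 23 of the 96 kept their call under all of them. In place of 96 genes (39 higher, 57 lower), DESeq2 called 149 (60 and 89), a filter at a mean of 5 CPM 134 (59 higher), and no filter 133. Leaving out 1 library at a time gave 52 to 109 genes, 21 to 48 higher and 31 to 67 lower. The sources used here do not say whether replicate numbers pair the libraries. Deviations of same-numbered libraries from their group means correlated at -0.035 to 0.0402, which gave no sign of pairing. This cannot exclude it, because every gene tested had equal weight, noisy low-count genes included. The fit with the replicate number as a block called 144 genes, 64 of them higher. With replicate 2 left out of both exosome groups, an alternative added after seeing the data, 28 genes passed (14 higher, 14 lower), with 3 interferon-stimulated genes, 2 tRNA synthetases and 1 macrophage identity gene. Without 1 library, 3 to 23 interferon-stimulated genes, 3 to 7 tRNA synthetases and 4 to 10 NRF2 targets passed. NRF2 targets numbered 12 with DESeq2, limma-voom, the 5 CPM filter or the 6 exosome libraries alone, 11 with no filter and 14 with the replicate block, while 18 interferon-stimulated genes passed with no filter. The cause of these shifts was not tested. Medians near 0 changed sign: that of the selenoproteins was -0.0179 and -0.0139 without replicates 1 and 3 of ApoE-deficient exosomes and -0.0201 without replicate 2 of wild-type exosomes, within a range up to 0.0438 over the libraries left out. That of the LXR targets was -0.0124 with limma-voom and -0.00787 without replicate 1 of ApoE-deficient exosomes, within a range up to 0.0264. At this depth and with 3 libraries a group, 1.25-fold changes were mostly missed in simulated counts. Even of 2-fold and 3-fold changes, edgeR recovered only 66% and 70%. A gene that was not called may therefore still differ by any of these amounts.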
